A study of Mus musculus with 20 samples.

Results

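In mouse tissue labelled BNST (bed nucleus of the stria terminalis), 5 of 20 RNA libraries held transcripts of Pmch, the precursor of melanin-concentrating hormone (MCH), at levels that the other 15 did not reach, and the genes that were high or low along with it are described here. The 5 libraries were chosen by 1 measured value, a Pmch level over 5 CPM (the raw read count divided by the library's total count and multiplied by 1000000). Since this value made the split, no test is given for any difference between the chosen and the other libraries, and Pmch itself is a description. The lowest Pmch level inside the cutoff was 8.51 CPM in susceptible female 4, and the highest outside it was 0.771 CPM in male control 2.

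The BNST is a small forebrain region that links the amygdala with the hypothalamus and brain stem. RNA came from 4 groups of 5 libraries each: female control mice, male control mice, and female and male mice labelled susceptible within a model of anxiety made by chronic restraint stress. All are labelled as BNST and mouse, sex stands under genotype in the labels, and neither strain nor age is given there. The labels do not say how susceptibility was decided or that each library is a separate animal, so the p-values below measure only the spread between these libraries. The chosen libraries are female controls 1, 2 and 3, susceptible female 4 and susceptible male 5, so 4 are female and 1 is male, and none is a male control.

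MCH neurons and orexin neurons are separate populations of the lateral hypothalamus and the adjoining zona incerta; both project widely through the brain and take part in feeding, arousal and sleep. Hcrt encodes the orexin precursor. Vasopressin (Avp) and oxytocin (Oxt) are made by, among other cells, large neurons of the paraventricular and supraoptic nuclei. The development of these neurons depends on the transcription factors Otp and Sim1. Medium spiny neurons, marked by dopamine receptors and opioid peptides, fill the striatum, which borders the BNST in front and to the side, while the thalamus and hypothalamus lie behind and below it.

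The 100 bases before the annotated transcription start are shown for the 4 peptide genes with the largest differences. Counts per gene do not show which start the transcripts used. They are read 5′ to 3′ on the strand of the gene from the RefSeq promoter table on GRCm38.p6 (mm10), and capitals mark the motif TATAAA, the only motif searched, on both strands. It lies 27 bases before the start in Pmch and 33 bases before it in Hcrt, counted from its first base, and it is absent from the Avp and Oxt windows. Of 32851 promoters in the table, 5.56% held it on either strand in the same window.
Pmch, chr10:88090972-88091071, plus strand: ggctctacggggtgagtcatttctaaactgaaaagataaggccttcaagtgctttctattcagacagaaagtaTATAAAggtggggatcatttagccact
Hcrt, chr11:100762932-100763031, minus strand: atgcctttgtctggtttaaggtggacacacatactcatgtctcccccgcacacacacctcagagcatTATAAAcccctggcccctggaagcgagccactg
Avp, chr2:130582589-130582688, minus strand: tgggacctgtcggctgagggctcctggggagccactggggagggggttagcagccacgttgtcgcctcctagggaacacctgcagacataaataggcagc
Oxt, chr2:130576069-130576168, plus strand: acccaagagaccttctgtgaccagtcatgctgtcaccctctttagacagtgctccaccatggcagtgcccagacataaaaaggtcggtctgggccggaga

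The ranges of the chosen and the other libraries overlapped in depth, genes detected and mitochondrial share. Total counts ran from 15012970 to 17621275 in the chosen libraries and from 14637636 to 17862840 in the other 15. Between 16817 and 17051 genes had at least 1 count in the chosen libraries, against 16677 to 17007 in the others. Female control 2 (17051) and female control 1 (17012) had the most of all 20. Mitochondrially encoded genes took 4.21% to 5.78% of the counts in the chosen libraries and 4.28% to 7.37% in the others. Female control 1 was lowest of all 20.

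Pmch (chr10:88091072-88092375, plus strand, protein-coding) stood at 120 CPM in female control 1, 24.0 in female control 2, 11.2 in female control 3, 8.51 in susceptible female 4 and 23.8 in susceptible male 5, from 2073, 409, 169, 150 and 357 counts. The other 15 libraries had a lowest level of 0.056, a median of 0.241 and a highest level of 0.771 CPM, from 1 to 13 counts each. The mean was 37.6 ± 46.8 CPM (SD, n = 5) in the chosen libraries and 0.302 ± 0.174 (SD, n = 15) in the others. The spread among the chosen libraries was thus wider than their mean, and female control 1 held more Pmch than the other 4 together. The gene Parpbp runs on the opposite strand over part of Pmch (chr10:88091432-88146941) and, since the strand setting of the counting is not given, reads of the overlap cannot be told apart. Parpbp itself was at 0.170 to 0.599 CPM in the chosen libraries and 0.198 to 0.766 CPM in the others.

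Hcrt (chr11:100761069-100762931, minus strand, protein-coding) was the second marker set for lateral hypothalamic RNA, and it took no part in the choice of libraries. It stood at 84.5 CPM in female control 1, 29.1 in female control 2, 4.92 in female control 3, 4.43 in susceptible female 4 and 12.3 in susceptible male 5. In the other 15 libraries it ranged from 0 to 0.619 CPM (male control 1) with a median of 0.193. The groups did not overlap, and Hcrt ranked the 5 libraries exactly as Pmch did: female control 1 highest, then female control 2, susceptible male 5, female control 3 and susceptible female 4. The mean Hcrt level was 27.1 ± 33.6 CPM (SD, n = 5) against 0.211 ± 0.204 (SD, n = 15). In bulk tissue, more cells of a type and more RNA per cell cannot be told apart.

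**Figure D1:**
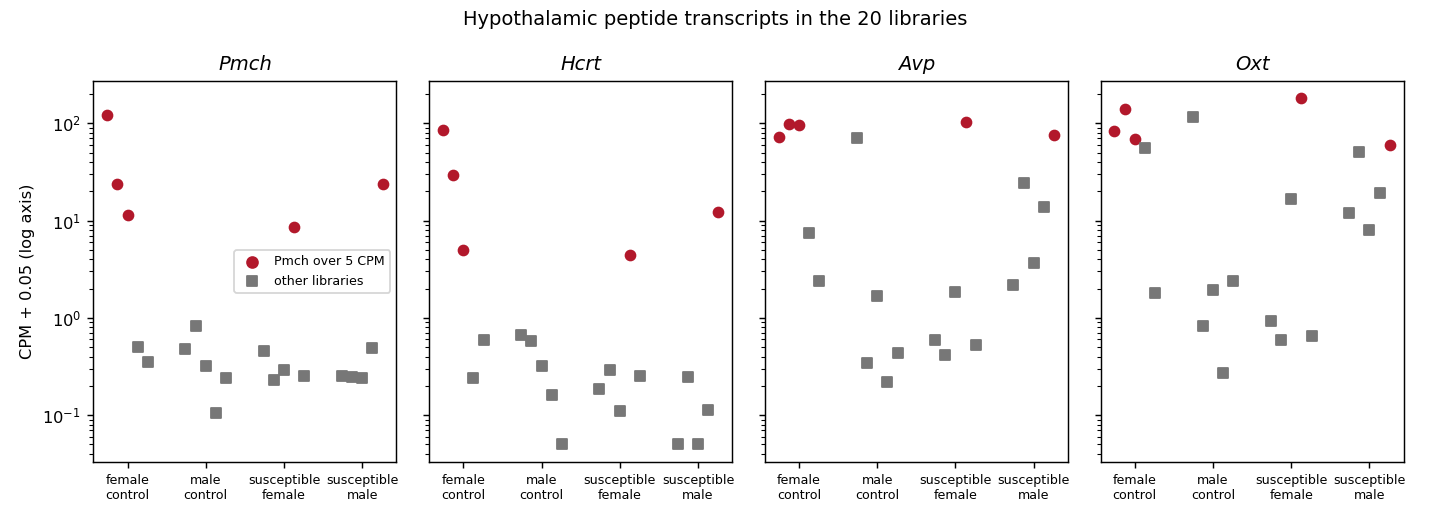
CPM of Pmch, Hcrt, Avp and Oxt (log axis, 0.05 added so that a level of 0 can be drawn) in each of the 20 libraries, by labelled group; red circles are the 5 libraries with Pmch over 5 CPM and grey squares the other 15. Pmch and Hcrt leave a wide gap between the circles and the squares, Avp a narrow one, and for Oxt the squares of male control 1 and the circles overlap.

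Differences below are between the mean log2(CPM + 0.5) of the 5 chosen and of the 15 other libraries, a scale that understates the change of low genes, over the 14816 genes whose mean across all 20 libraries was 0.5 CPM or more. On this scale Pmch was 4.92 and Hcrt 4.49 higher. For differences within groups, each chosen library was set against the mean of the unchosen libraries of its labelled group. Averaged over the 5 chosen libraries, 3 of them female controls, these were 4.85 and 4.37. Of the 14816 genes, 143 (0.965%) were higher in all 5 chosen libraries than in every other library, and 297 (2.0%) were lower in all 5. A mean difference of at least 2-fold was found upward for 216 genes (1.46%) and downward for 166 (1.12%), and the median difference over all genes was 0.03. Most of the 143 differences were small: their median was 0.51, and 16 of the 143 reached 2-fold, whereas 91 of the 297 lower genes did, with a median of -0.68. These counts are no result about chance, since the libraries were picked by a level that goes with them. Without female control 3, susceptible female 4 or susceptible male 5 the 143 became 245, 221 or 271. A rise follows from the rule, since fewer libraries must then agree. The number of genes at least 2-fold lower is not bound in this way, and without female control 1 the 166 became 107.

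A look at each chosen library that the gene choice did not use gave the share that carried over. Genes above all 15 others in 4 of the chosen libraries were looked up in the 1 left out. Of 152 genes found without female control 1, 94.1% were above all 15 others in it too, against 15.7% of all 14816 genes. The share was 80.8% of 177 genes for female control 2, 64.7% of 221 for susceptible female 4, 58.4% of 245 for female control 3 and 52.8% of 271 for susceptible male 5. The matching shares of all genes were 11.2% for female control 2, 8.26% for female control 3 and 8.77% for susceptible male 5, and for susceptible female 4 1781 of the 14816 genes were above all others. For genes below all 15 others the shares were 96.4% in female control 1 and 76.9% to 81.4% in the other 4, against 9.11% to 12.5% of all genes. The set of genes was thus shared most fully by female control 1 and least by susceptible male 5 on the high side. All 5 libraries were still chosen by Pmch, so these shares describe the split and do not test it.

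The top of the list of genes higher in all 5 libraries was taken as the 15 with the largest difference, leaving out predicted models. Pmch, Avp and Hcrt led it by far. The next was Agt, the angiotensinogen gene that astrocytes express, with 193, 180, 146, 185 and 137 CPM (here and below in the order female controls 1, 2 and 3, susceptible female 4, susceptible male 5), against 4.24 to 122 with a median of 67.8 in the others. Its difference was 1.75. Sparc, which encodes a secreted matrix-binding protein, had 1221, 1128, 879, 1342 and 998 CPM against 150 to 873 with a median of 678, and a difference of 1.04. For Sparc the gap between female control 3 (879 CPM) and the highest of the others, male control 1 (873 CPM), was small.

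Prph encodes peripherin, an intermediate filament protein of some neurons, and stood on the list of histamine neuron genes. Its levels of 8.01, 1.58, 1.40, 1.25 and 1.47 CPM compared with 0.056 to 1.21 in the others, where susceptible female 3 was highest. The other 10 were Nxph4, a secreted neurexin ligand (difference 1.53), Tmem132c (1.37), Pmfbp1 (1.33), the microtubule-severing factor Fign (1.22), the mechanically gated channel Piezo2 (1.21), Pcbd1, an enzyme of tetrahydrobiopterin recycling (1.21), Bbox1, an enzyme of carnitine synthesis (1.10), the transcription factor Tshz2 (1.04), and Arhgap24, a GTPase-activating protein (1.03), with Avp described below. The highest of the other libraries was susceptible female 3 for 5 of these 15 genes (Prph, Tmem132c, Fign, Piezo2 and Arhgap24) and male control 1 for 5 more (Avp, Hcrt, Pmfbp1, Bbox1 and Tshz2), besides Sparc.

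Likeness to Pmch within the 5 libraries was measured by how many of their 10 pairs a gene put in the same order. Of the 14816 genes, 163 (1.1%) ordered all 10 pairs as Pmch did, and among the 216 genes at least 2-fold higher 25 did (11.6%). Hcrt, Prph and Tmem132c were the genes of the 15 that did so besides Pmch. Tmem132c stood at 32.2, 24.4, 22.7, 22.5 and 24.2 CPM against 5.25 to 19.1, so the order below female control 1 rested on differences of under 2 CPM. Prph ran only from 1.25 to 1.58 CPM below female control 1, where 1 count was 0.057 to 0.067 CPM, so its order rested on few counts. The order of Pmch itself was close between female control 2 (24.0 CPM) and susceptible male 5 (23.8 CPM). Others with the same order were the glutamate transporter gene Slc17a6, the homeobox gene Lhx9, Grm2, Ebf3 and Irx3, but each of these overlapped the other 15 libraries. Ebf3, Grm2 and Irx3 were picked after their values were seen.

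The remaining genes known from MCH and orexin neurons did not move as a block. Of 13 listed MCH neuron genes, 12 passed the minimum of 0.5 CPM; 6 had a positive and 6 a negative difference, with a median of -0.10, against a positive difference in 56.1% of all genes. Cartpt, the precursor of the CART peptides that MCH neurons make, was at 28.2, 12.2, 7.91, 17.3 and 18.8 CPM against 10.5 to 47.5 in the others (difference -0.57). Tacr3, the neurokinin B receptor, was at 11.8 (female control 2) to 22.0 CPM (susceptible female 4) against 6.93 to 24.3 (0.01). Both overlapped. Gad1, which makes GABA, was lower on average (-0.42) and also overlapped.

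Of 12 listed orexin neuron genes, 11 passed the minimum; 9 had a positive and 2 a negative difference, with a median of 0.41. Pdyn, the dynorphin precursor that orexin neurons also make, was lower in all 5 libraries, where 2.0% of all genes were. It was at 31.2, 37.2, 37.9, 46.6 and 51.8 CPM against 69.4 to 180. Dynorphin is made in many striatal neurons as well, and striatal markers were lower in the same libraries (below). Their part in the Pdyn level was not tested. Qrfp, a peptide of some lateral hypothalamic neurons, stayed under the minimum, with 0.266 to 0.738 CPM in the chosen libraries and at most 0.362 in the others. The labelling of these libraries as lateral hypothalamic thus rests on Pmch and Hcrt.

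Of the receptors for these peptides, 1 was lower and 2 overlapped. Mchr1, the MCH receptor, was at 9.17, 14.8, 14.6, 13.8 and 12.8 CPM in the chosen libraries and 17.4 to 39.9 with a median of 28.2 in the others. It was lower in all 5, where 2.0% of all genes were, by 1.03 on the log2 scale. The orexin receptors Hcrtr1 and Hcrtr2 overlapped between the groups, with differences of 0.56 and 0.22.

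Vasopressin and oxytocin transcripts were high in the same 5 libraries, but in a different order. Avp (chr2:130580620-130582554) stood at 72.6, 99.3, 95.9, 102 and 76.1 CPM, while the others ran from 0.168 to 70.0 with a median of 1.81. The 5 libraries were alike within a factor of 1.41, where Pmch varied 14.1-fold. Male control 1, with 0.433 CPM of Pmch, had 70.0 CPM of Avp, followed by susceptible male 2 at 24.2 and susceptible male 4 at 13.6. Avp put only 2 of the 10 pairs in the order of Pmch.

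Oxt (chr2:130576173-130577054) was at 84.1, 141, 69.4, 180 and 59.2 CPM, and the others ran from 0.224 to 115 with a median of 2.36. Male control 1 again was highest among the others, with female control 4 at 55.8 and susceptible male 2 at 50.6 next, so the groups overlapped. The mean difference was 4.09, against 4.91 for Avp.

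The transcription factors of the paraventricular and supraoptic nuclei went with Avp and Oxt. Which cells the Avp and Oxt transcripts came from was not tested. Otp was at 23.5, 29.5, 22.3, 34.2 and 14.4 CPM against 0.0602 to 21.4, and Sim1 at 11.1, 10.7, 10.8, 14.1 and 6.06 against 0 to 7.49, with male control 1 highest of the others for both. Susceptible female 4, the library with the least Pmch of the 5, had the most Otp, Sim1, Avp and Oxt. Trh, the thyrotropin-releasing hormone precursor, stood at 20.6, 45.8, 37.2, 72.7 and 22.0 CPM against 1.75 to 50.0, and Fezf1, a forebrain transcription factor, at 7.20, 8.26, 6.65, 9.25 and 3.60 against 0.224 to 5.38. In each case male control 1 lay above susceptible male 5 and the groups overlapped.

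Over the lists, 20 of the 22 hypothalamic transcription factors that passed the minimum (of 32 listed) had a positive difference, with a median of 1.17, 13 were at least 2-fold higher, and none was free of overlap. Of the 27 hypothalamic peptide genes that passed (of 36 listed), 16 had a positive difference, a share near that of all genes (56.1%), while 10 were at least 2-fold higher and 4 at least 2-fold lower, against 1.46% and 1.12% of all genes. Avp, Pmch and Hcrt were higher in all 5 libraries without overlap, where 0.965% of all genes were. Of the 11 with a negative difference, Penk, Pdyn, Tac1 and Npy were lower in all 5 libraries, where 2.0% of all genes were. Crh, the stress peptide of the paraventricular nucleus and the BNST, was at 4.70 to 12.8 CPM in the chosen libraries and 3.79 to 13.8 in the others (difference -0.01).

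**Figure D2:**
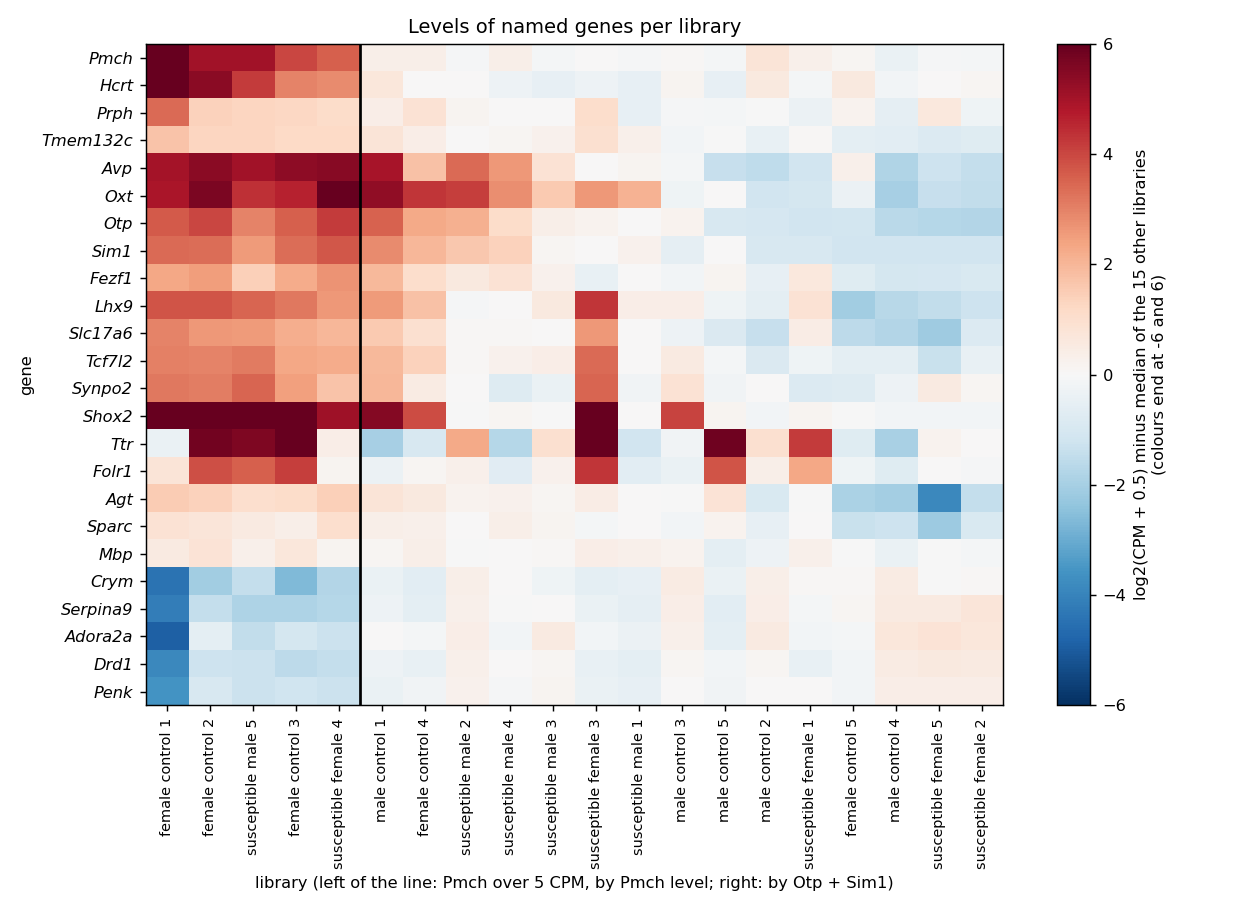
Level of each named gene in each library, as log2(CPM + 0.5) minus the median of the 15 other libraries (colours end at -6 and 6); the 5 chosen libraries stand left of the line in order of Pmch, the others right of it in order of Otp plus Sim1. Pmch and Hcrt are dark only left of the line, Avp to Fezf1 extend to male control 1, Lhx9 to Shox2 to susceptible female 3, and Crym to Penk are blue in all 5.

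Some further genes were highest in female control 1. All were picked after their values were seen. Foxb1, a mammillary transcription factor, stood at 11.5 CPM in it, at 0.681 to 2.06 in the other 4 and at 0.0602 to 1.61 in the other 15, with a difference of 0.96 when female control 1 was left out. Hdc, which makes histamine, stood at 34.7 CPM in it, at 2.59 to 5.04 in the other 4 and at most at 5.58 in the other 15. Bsx (7.14 CPM, against at most 2.62 elsewhere), Lmx1b (4.76 CPM, against at most 0.41) and Nkx2-4 (4.41 CPM, against at most 0.2) were likewise highest there. The median over the 8 subthalamic and mammillary genes that passed the minimum was 1.35 with this library and 0.88 without it.

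Transcripts of pituitary hormones were also highest in female control 1. Prl (prolactin) stood at 60.1 CPM there, at 12.8 in female control 2 and at 0.624 to 0.733 in the other 3, with 0 to 7.07 in the other 15, and Gh (growth hormone) at 36.9, 4.51, 0.864, 1.02 and 0.666 CPM with at most 4.29. Pomc was at 37.9 CPM in female control 1 and 23.2 in susceptible female 2, which is not among the 5. All 5 pituitary genes that passed the minimum had a positive difference, with a median of 1.46, or 0.66 without female control 1. The part of such tissue in the other results was not tested.

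Thalamic genes were high in all 5 libraries and reached the same range in 2 of the others, susceptible female 3 and male control 1. Slc17a6, which encodes the vesicular glutamate transporter of thalamic and hypothalamic neurons, stood at 465, 352, 261, 228 and 338 CPM. The others ran from 12.9 to 352 with a median of 57.8, and susceptible female 3, with 0.241 CPM of Pmch, was highest of them. Lhx9, on both the thalamic and the orexin lists, was at 38.6, 38.2, 25.3, 17.0 and 32.0 CPM against 0.181 to 55.5, again with susceptible female 3 highest. Tcf7l2, a transcription factor of the thalamus and habenula, was at 172, 164, 105, 98.1 and 181 CPM against 7.81 to 223. Shox2, a thalamic transcription factor picked after its values were seen, had 61.9, 62.8, 38.6, 19.0 and 63.1 CPM, with 84.4 in susceptible female 3, 25.3 in male control 1 and a median of 0.0683 in the others. Its difference was as large as that of Pmch, though it overlapped. With each chosen library left out in turn it ran from 4.84 to 5.27, against 4.33 to 5.27 for Pmch.

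Of the 22 thalamic markers, 21 had a positive difference (56.1% of all genes did) and 16 were at least 2-fold higher (1.46% of all genes), with a median of 1.70, and none was free of overlap. Their summed level was 1917 to 3765 CPM in the chosen libraries with a median of 3196. In the others it was 900 to 3795 CPM with a median of 1114. Susceptible female 3 (3795 CPM) held more than any chosen library, and male control 1 (1965 CPM) more than susceptible female 4, the lowest of the 5. The 10 habenular genes had 9 positive differences with a median of 0.84, or 0.40 without susceptible male 5, and their highest sum was again in susceptible female 3 (340 CPM, against 69.2 to 173 in the chosen libraries).

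Genes of striatal neurons were the ones that were low together. All 20 striatal markers had a negative difference with a median of -1.51, 17 were at least 2-fold lower, and 12 of 20 were lower in all 5 chosen libraries than in each of the other 15, where 2.0% of all genes were. Drd1, the dopamine receptor of striatonigral neurons, stood at 8.36, 54.0, 43.1, 47.3 and 51.8 CPM against 85.3 to 195 with a median of 129. Adora2a, the adenosine receptor of striatopallidal neurons, stood at 3.13, 71.7, 53.0, 44.7 and 39.6 CPM against 73.1 to 192. Both were lower in all 5, and Adora2a in female control 2 only just so. Female control 1 was lowest by far.

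Penk, the enkephalin precursor, was at 52.4, 319, 273, 255 and 255 CPM against 440 to 834, lower in all 5. Crym, a thyroid hormone-binding protein, had the most negative difference of the genes that did not overlap, at 5.51, 29.6, 20.1, 37.3 and 48.1 CPM against 82.3 to 181, a difference of -2.41. Serpina9 (-2.23), the collagen gene Col6a1 (-2.15), Krt9 (-1.88) and Ankrd63 (-1.79) were, with Adora2a (-2.01) and Drd1 (-1.86), the others named of the 8 genes with the most negative differences. The summed striatal level was 798 CPM in female control 1 and reached 3107 in female control 2, while the lowest of the other 15 was 3319. Without female control 1 the median difference of the striatal list was -1.16, and the difference of Adora2a was -1.25.

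**Figure D3:**
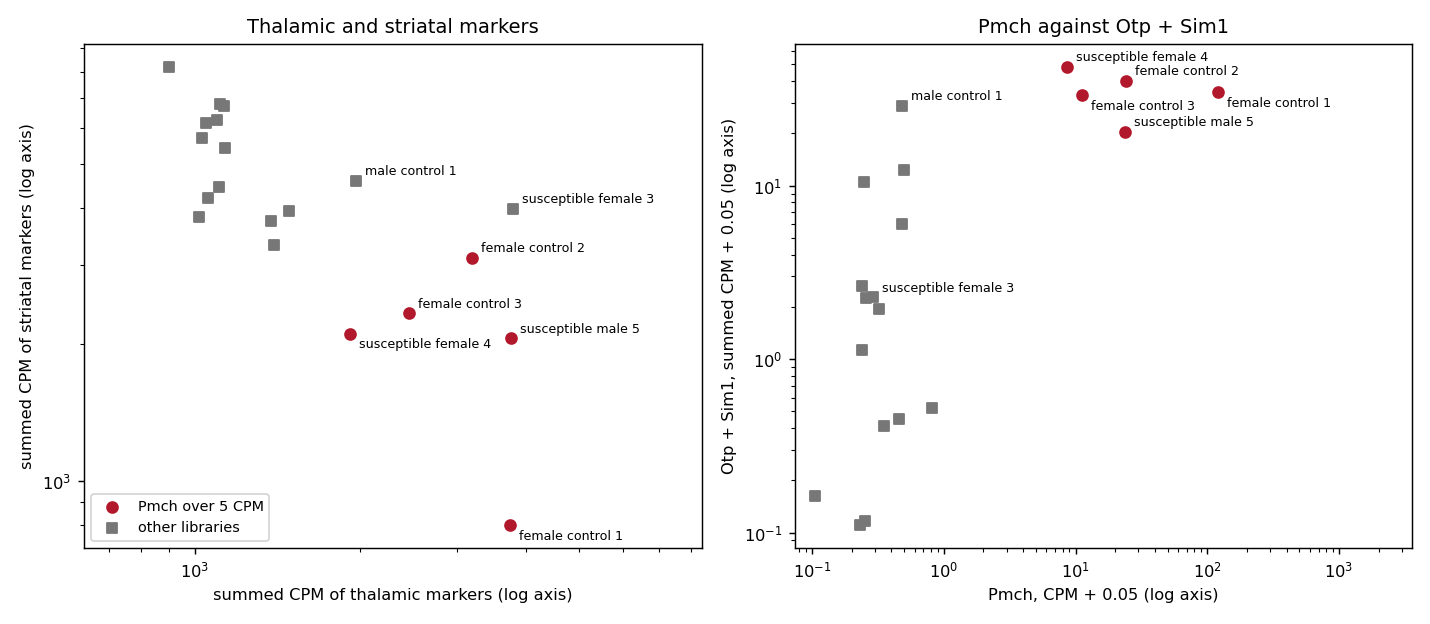
Left, the summed CPM of 22 thalamic against 20 striatal markers in each library (log axes); right, Pmch against Otp plus Sim1 (CPM, 0.05 added, log axes); red circles are the 5 chosen libraries. The circles lie below all squares on the striatal axis, susceptible female 3 and male control 1 lie at or above the lowest circle on the thalamic axis, and male control 1 shares their Otp plus Sim1 level but not their Pmch.

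Markers of the BNST and its neighbours in the subpallium, the tissue named in the labels, were spread over both directions. Of 20, 7 had a positive and 13 a negative difference, with a median of -0.22. Dlx6 alone was lower in all 5, where 2.0% of all genes were. Their summed level was 1773 to 2377 CPM in the chosen libraries and 1614 to 3005 in the others. Lhx8, a transcription factor of cholinergic and other subpallial neurons, was at 1.16, 7.38, 8.37, 24.6 and 16.5 CPM against 4.58 to 33.6. GABA synthesis and transport genes (Gad1, Gad2 and Slc32a1) differed by -0.45 to -0.42.

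Choroid plexus genes split the chosen libraries among themselves. Ttr (transthyretin, a carrier secreted by the choroid plexus) stood at 22.1, 1659, 1952, 38.1 and 1423 CPM, so it was high in female controls 2 and 3 and susceptible male 5 and low in female control 1 and susceptible female 4. Among the others it was 2005 CPM in susceptible female 3, 1723 in male control 5 and 551 in susceptible female 1, with a median of 29.2. Folr1, Cldn2 and Kcne2 had the same 3 chosen libraries high. The list of 19 had only positive differences, with a median of 1.29 and no gene free of overlap. This median averages over libraries with and without the signal, whose sums ran from 184 to 2393 CPM.

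Myelin genes were moderately higher. All 25 had a positive difference, with a median of 0.51, and none was free of overlap. Mbp (myelin basic protein) stood at 3318, 4001, 3697, 2583 and 2801 CPM against 1521 to 2965. Among 16 astrocyte genes 14 had a positive difference with a median of 0.28. Agt and Slc6a11, a GABA transporter of astrocytes, were free of overlap, where 0.965% of all genes were higher without overlap. Slc6a11 was at 870, 762, 687, 882 and 715 CPM against 181 to 636.

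All 14 microglial genes had a negative difference, with a median of -0.14, and 12 of 15 endothelial and pericyte genes did, with a median of -0.15, or 0.03 with differences taken within groups. All 19 genes of cholesterol synthesis were positive, with a median of 0.28, and none was free of overlap. Of 20 immediate early genes, which neuronal activity induces, 18 had a negative difference with a median of -0.76, and 4 (Egr1, Egr3, Egr4 and Npas4) were lower in all 5, where 2.0% of all genes were. Egr3 was at 15.5, 47.8, 64.1, 42.6 and 44.6 CPM against 76.2 to 250. Fos, on the same list, did not differ on average: 26.1 to 50.1 CPM against 13.5 to 51.7. The summed striatal markers were lower in the same libraries, and their part in the early genes' levels was not tested.

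**Figure D4:**
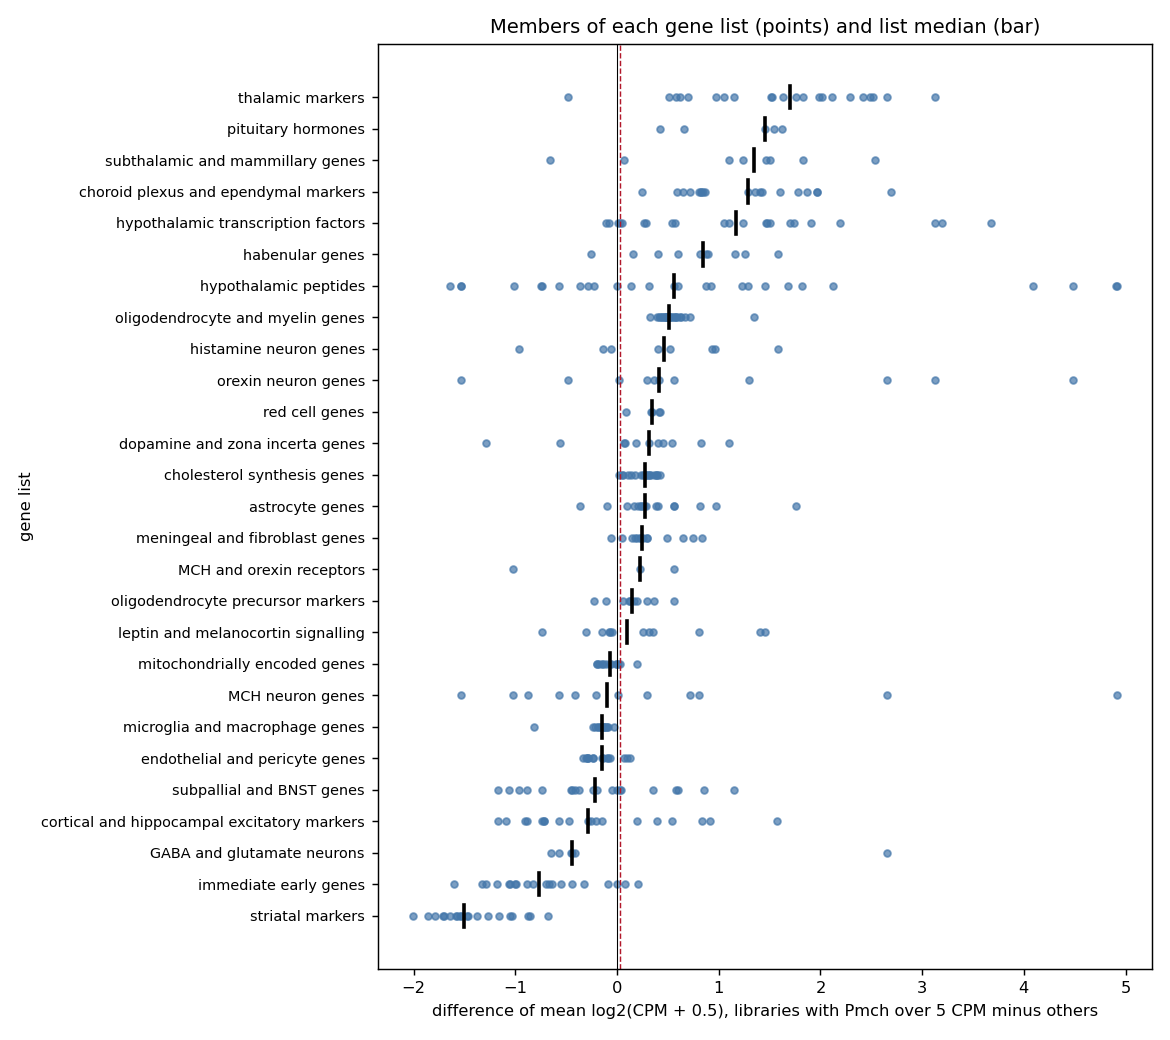
Difference of mean log2(CPM + 0.5), chosen minus other libraries, for each gene (point) of the 27 gene lists whose mean was 0.5 CPM or more, and the median of each list (bar); the dashed line is the median of all 14816 genes (0.03). Thalamic markers (1.70) and striatal markers (-1.51) lie at the ends, and MCH neuron genes (-0.10) lie near the middle although Pmch is their outermost point.

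The chosen libraries were spread unevenly over the labelled groups, so these genes enter the study's comparisons. Female controls hold 3 of the 5, susceptible females 1, susceptible males 1 and male controls 0. Mean Pmch was 31.3 ± 50.7 CPM in female controls, 1.91 ± 3.69 in susceptible females, 0.344 ± 0.275 in male controls and 4.96 ± 10.5 in susceptible males (SD, n = 5 each). Mean Avp was 55.5 ± 47.4, 21.1 ± 45.3, 14.5 ± 31.0 and 23.9 ± 30.5 CPM in the same order. In 3 of the 4 groups the SD of Pmch exceeded its mean.

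The comparisons share libraries, and each is given with its own values. By edgeR's quasi-likelihood test with Benjamini-Hochberg adjustment over 14884 genes, 0 genes passed an adjusted p of 0.05 for susceptible against control females (0.0%) and 0 for susceptible against control males (0.0%), while 871 and 1439 had an unadjusted p under 0.05. DESeq2 called 0 of 14881 genes in females and 13 of 7093 in males, counting only genes to which it gave an adjusted p. In males it gave none for Pmch, Hcrt or Avp. Pmch differed by -3.97 ± 1.51 (SE, adjusted p = 0.774) in females and by 3.80 ± 1.87 (adjusted p = 0.532) in males. Hcrt differed by -4.47 ± 1.54 (adjusted p = 0.774) and 2.98 ± 1.83 (adjusted p = 0.622). The direction was opposite in the sexes, and neither difference passed. The female minus the male difference was -7.76 ± 2.37 for Pmch (adjusted p = 0.587 by edgeR) and did not pass either. Over single libraries left out, the female difference ran from -6.84 (without susceptible female 4) to -2.20 (without female control 1) for Pmch and from -7.10 to -3.04 for Hcrt, without the same 2 libraries. Without susceptible male 5 the male difference was -0.41 for Pmch and -2.13 for Hcrt.

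The male against female controls comparison sets 0 chosen libraries against 3 of 5. There edgeR called 76 genes (0.511%), 43 higher and 33 lower in males. The pituitary genes Prl (-6.12 ± 1.30, log2, SE, adjusted p = 0.0462 by edgeR) and Gh (-5.46 ± 1.16, adjusted p = 0.0459) were among the 76. Both were highest in female control 1. Pmch differed by -6.44 ± 1.85 (log2, SE, adjusted p = 0.106 by edgeR), Hcrt by -6.21 ± 1.78 (adjusted p = 0.106) and Avp by -1.94 ± 1.56 (adjusted p = 0.491), and none of them passed. With DESeq2 the adjusted p was 0.00275 for Pmch and 0.0166 for Hcrt, and with edgeR without female control 5 it was 0.0477 and 0.0485. With the split by Pmch as a covariate 12 genes were called, and without the chosen libraries, which leaves 2 female controls, 5 were. Avp then differed by 1.90 and 1.57, in the opposite direction, whereas without male control 1 it differed by -6.51 (adjusted p = 0.101 by edgeR). The count also changed when single libraries were left out, to 6 without female control 3, 9 without female control 1 and 458 without female control 5.

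The 15 genes highest in the chosen libraries had a negative difference in all 15 cases for susceptible against control females (-4.47 to -0.34) and for male against female controls (-6.44 to -0.50), and a positive one in all 15 for susceptible against control males (0.31 to 3.80). The 8 lowest genes had the reverse sign in each case: 0.69 to 1.12, 0.99 to 1.39 and -0.67 to -0.26. None of the 23 passed the test in any of the 3 comparisons. The choice of the libraries and their place in the groups set these signs, so they are no separate support. The number of genes at an unadjusted p under 0.05 in females was 871 of 14884 tested in all libraries. It was 334 of 14884 with the split as a covariate and 286 of 15104 without the chosen libraries. In males it was 1439, 1316 and 1024 of the same totals. If nothing differed, a share of about 0.05 would have such a p. In females 871 was slightly above that share, while 334 and 286 were below it. Leaving out the chosen libraries also leaves fewer female controls. The reason for the fall in females was not tested.

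Lars2 and Ddx3y, both picked after their values were seen, show 2 ways in which a gene can differ without following Pmch. Lars2, the mitochondrial leucyl-tRNA synthetase gene, was at 385, 395 and 232 CPM in the 3 chosen female controls and at 102 and 131 in susceptible female 4 and susceptible male 5, against 84.8 to 191 in the others. It was high in the 3 chosen female controls only. Ddx3y, a Y-linked gene, differed by -2.95 between the chosen and other libraries, 4 of the 5 chosen being female, and by 0.05 within groups.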

How the data were processed

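Polyadenylated RNA labelled as mouse BNST was sequenced in 20 libraries. The authors deposited 1 table of raw read counts per gene for each library, in whole numbers that are not normalized. HISAT2, featureCounts and mm10 are named per the submitters' processing notes; tool versions, annotation, strandedness and multi-mapping rules were not given in the sources used here. Gene symbols and positions came from GENCODE mouse release 21 (19180 of 19214 identifiers matched) and promoter sequences from RefSeq on GRCm38.p6.

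Groups and replicate numbers came from the sample titles. CPM was 1000000 times the count over the library total; totals of 14637636 to 17862840 set the precision, and they cover counting error only. Within groups, every one of 40 pairs of libraries differed by more than sampling noise (chi-square test over genes), so all 20 were kept as separate. Libraries with Pmch over 5 CPM were set beside the others without a test, over genes averaging 0.5 CPM or more, on mean log2(CPM + 0.5).

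The labelled groups were compared with edgeR 4.0.16 (robust quasi-likelihood, TMM scaling, filterByExpr, all 20 libraries, 1 mean per group) under R 4.3.3, adjusted p threshold 0.05; standard errors were derived from the F statistic and the log2 fold change. On simulated counts, 200 genes were changed for susceptible against control females (14800 genes). There edgeR recovered 57% of those changed 1.5-fold and 75% of those changed 2-fold, with 9 false calls. Recovery where whole sets of genes shift together between libraries, as the thalamic and striatal markers did, was not tested. DESeq2 1.42.0, its size factors, other filters, pseudocounts of 0.1 and 1, Pmch cutoffs of 10 and 20 CPM, differences within groups, a replicate block, the split as a covariate, and leaving out each library or all chosen libraries were alternatives.

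Named genes were Pmch, Hcrt, the MCH, orexin and receptor lists, the 15 largest and 8 most negative differences without overlap (predicted models left out), and up to 4 members of each of the 27 gene lists; other names were picked after their values were seen, and 1 gene of the 8 is not reported here. The libraries, lists and tests were chosen with earlier results of these data known.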

Additional observations from a re-analysis of the deposited data

Results flagged for a closer look

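In each labelled group of 5 libraries, the 4 peptide genes and the genes that led either end of the split were checked for 1 library far from the other 4, with a gap to its nearest neighbour over 0.71 of the group's range (Dixon's 95% limit for 5 values). Of 96 gene and group pairs, 19 passed, 16 of them in chosen libraries. Chance flags about 5% of groups, but that rate cannot be set beside these counts: the libraries were chosen by Pmch and most of the genes by the split itself. The values in chosen libraries restate that choice, and genes that share a library are not independent. Pmch stood apart in female control 1 (120 CPM, next 24.0), susceptible female 4 (8.51 CPM, next 0.403) and susceptible male 5 (23.8 CPM, next 0.434), and Hcrt in susceptible female 4 (4.43 CPM) and susceptible male 5 (12.3 CPM). Avp stood apart in susceptible female 4 (102 CPM, next 1.81) and Oxt in the same library (180 CPM, next 16.8).

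Male control 1, which is not among the chosen libraries, stood apart from the other male controls in Avp (70.0 CPM, next 1.63), Oxt (115 CPM, next 2.36) and Pmfbp1 (1.79 CPM, next 0.784). Susceptible male 5 was highest of its group in Agt (137 CPM), Tmem132c (24.2 CPM), Fign (25.8 CPM), Arhgap24 (29.8 CPM), Prph (1.47 CPM) and Pmfbp1 (2.66 CPM), and lowest in Col6a1 (63.7 CPM, next 145). Prph was also far from its group in female control 1 (8.01 CPM) and Pmfbp1 in susceptible female 4 (3.40 CPM).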

How the results depend on the processing

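Genes lower in all chosen libraries numbered 297, but 130 with a Pmch cutoff of 10 CPM and 106 with 20 CPM. Leaving out 1 chosen library in turn gave 152 to 271 genes higher in all, 308 to 386 lower in all, 200 to 264 at least 2-fold higher and 107 to 203 at least 2-fold lower; fewer libraries must all agree, which raises the first 2 counts. Leaving out each library gave 0 to 2 calls for susceptible against control females (2 without susceptible female 4), 0 to 0 for males, and 6 to 458 for male against female controls (193 without male control 1). For male against female controls DESeq2 called 455, edgeR without a count filter 38, with the split as covariate 12 and without the chosen libraries 5. For susceptible against control males DESeq2 called 13 of the 7093 genes to which it gave an adjusted p. The replicate block gave 0, 0 and 110 calls; the numbers pair no samples by label, and the correlation of same-numbered libraries ran from -0.436 to 0.642 in females. For susceptible against control males, Pmch turned to -0.29 (covariate) and -0.41 (without susceptible male 5), Hcrt to -1.30 and -2.13, and Avp to -0.68, -0.40 (without the chosen libraries) and -0.40 (without susceptible male 5). Avp for male against female controls turned to 1.90 (covariate) and 1.57 (without the chosen libraries). Over all single libraries left out, the male difference ran from -0.41 to 4.36 for Pmch, -2.13 to 3.38 for Hcrt and -0.40 to 5.31 for Avp. The cause was not tested. At a pseudocount of 0.1 the hypothalamic transcription factor and the subthalamic and mammillary medians were both 1.91. Alternatives for list medians, single genes and group fold changes were added after seeing the data.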

Other observations

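Of 19 cortical and hippocampal excitatory markers 13 had a negative difference, with a median of -0.28 (-0.60 with differences taken within groups). Lamp5, a marker of some cortical interneurons and projection neurons, was the only member without overlap, where 2.0% of all genes were lower in all 5. Lamp5 was at 13.3, 28.9, 37.4, 24.4 and 37.0 CPM in the 5 chosen libraries and at 38.2 to 94.9 in the others. Prox1, a transcription factor of the dentate gyrus that is also found in thalamic neurons, went the other way, at 84.3, 89.1, 63.5, 38.9 and 67.8 CPM against 11.1 to 93.4, with susceptible female 3 highest of the others. The cortical glutamate transporter gene Slc17a7 was at 43.9, 92.9, 355, 17.5 and 97.3 CPM against 11.2 to 671, so it was uneven on both sides of the split. Prox1 belongs to the examples of its list, and Slc17a7 is named as a marker of excitatory cortical neurons.

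Dopamine and zona incerta genes had 9 positive and 2 negative differences of 11 (median 0.32, or 0.18 without female control 1). Meis2, a transcription factor of striatal and other subpallial neurons, was the member lower in all 5, where 2.0% of all genes were. It was at 62.9, 140, 137, 129 and 134 CPM against 194 to 394. Th, which makes the dopamine precursor, was at 8.44 to 19.5 CPM against 4.66 to 14.8. Genes of leptin and melanocortin signalling were split 6 to 6 (median 0.10). Npy, the orexigenic peptide on that list, was lower in all 5, at 12.3 to 15.3 CPM against 16.7 to 36.1, while the ghrelin receptor Ghsr was at 1.66 to 4.03 CPM against 0 to 2.85.

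Histamine neuron genes had 5 positive differences of 8 (median 0.46, or 0.19 without female control 1). Oligodendrocyte precursor markers had 8 of 10 positive (median 0.15), meningeal and fibroblast genes 13 of 14 (median 0.24, or 0.13 without female control 2 or female control 3), red cell genes 5 of 5 (median 0.34, or 0.20 without female control 2) and mitochondrially encoded genes 3 of 13 (median -0.07). None of the members of the last 4 lists was free of overlap.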
